A study of Mus musculus with 3 samples.

Results

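The genes described here encode 10 receptors that raise or restrain T cell activation: Cd28, Icos, Ctla4, Pdcd1, Btla, Cd226, Tigit, Cd96, Lag3 and Havcr2. They were taken by name, not by any measured value, but with earlier results of these data known. They are 10 of the 22457 genes in the deposited count tables. The cells are mouse regulatory T (Treg) primary cells, male and adult, 4 months of age, and poly(A) RNA was sequenced. GEO's labels give 3 libraries, technical replicates 1, 2 and 3 of biological replicate 1, so there is 1 group and no condition to compare. The labels used here name no strain, genotype, treatment or sorting marker. Levels are counts scaled to a library total of 1e6 (CPM), and errors are SDs over the 3 libraries. Every p-value measures only the spread between technical libraries of 1 sample. The labels do not say whether each library was made from its own sort or its own animal.

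A T cell that meets its antigen needs a further signal, and CD28 delivers it when it binds CD80 or CD86 on an antigen-presenting cell. CTLA-4 binds the same ligands more tightly, and Treg cells use it to strip them from the presenting cell. A similar contest takes place over the poliovirus receptor CD155, with CD226 as the activating receptor and TIGIT and CD96 as competitors, while PD-1, BTLA, LAG-3 and TIM-3 dampen activation through ligands of their own.

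Library totals were 3316275, 3079004 and 2782259 counts in libraries 1, 2 and 3, and 10611 of the 22457 genes reached 1 CPM in every library, which is the detection limit used here. The Treg transcription factor Foxp3 had 448, 447 and 407 counts, and Il2ra, the high-affinity IL-2 receptor subunit, had 1061, 894 and 936. Cd4 had 1892, 1920 and 1501 counts and Cd3e, a chain of the T cell receptor complex, had 1248, 1228 and 1211, so the defining markers of the labelled cell type were present in each library. Markers of other cells were also present. The B cell list had 8 of 10 genes detected and summed to 63.3, 161 and 196 CPM, with Cd79b at 148, 165 and 204 counts and Cd79a at 12, 69 and 72. The dendritic and myeloid list had 3 of 10 detected and summed to 24.1, 74.4 and 38.8 CPM. Cd68, Lyz2 and Csf1r had the most counts, but Lyz2 was not among the detected genes, with 1, 49 and 11 counts. The list of NK and CD8 T cell genes had 1 of 6 detected, Cd8b1, followed by Eomes and Klrb1c, and summed to 24.4, 25.0 and 34.9 CPM; Cd8a had 0, 0 and 1 counts. No gene of these lists was at 0 in all 3 libraries. Of the stretches of 31 coding bases, 27.1% in Cd79a, 38.4% in Lyz2 and 61.6% in Klrb1c also occur in other genes, so these counts are uncertain.

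All 10 receptors were detected in all 3 libraries, with a median of 298 CPM, against 45.6 CPM over all detected genes. Together they held 2509, 2613 and 2681 CPM in libraries 1, 2 and 3, or 0.260% of all counts. Counts per coding base adjust for coding length only. On this scale Tigit stood highest and Lag3 lowest, 10.9-fold apart. Per base of all annotated exons Tigit stayed highest, at 1.59 counts, and Btla was lowest, at 0.0761. Counts per coding base had an upper edge, given further below. Whether it flattened differences between dense genes was not tested. In bulk RNA, fewer cells with a receptor and less of its RNA per cell cannot be told apart.

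Cd28, Ctla4 and Icos are neighbours of common ancestry that encode receptors of the CD28 family. They lie within 283.5 kb of chromosome 1, all on the plus strand of GRCm38: Cd28 at chr1:60716800-60773359, Ctla4 at chr1:60887000-60915832 and Icos at chr1:60977927-61000320. The gaps are 113.6 kb between Cd28 and Ctla4 and 62.1 kb between Ctla4 and Icos, with 0 other protein-coding genes annotated in either. The coding sequences below, from GENCODE M21 transcripts on GRCm38, are shown because they carry the family's shared and divided binding. The capitals in the first set mark the codons of the loop in exon 2 that touches the B7 ligands. In Ctla4 (chr1:60912701-60912742) and Cd28 (chr1:60763263-60763304) the capitals encode methionine, tyrosine, a run of prolines and tyrosine, and in Icos (chr1:60993971-60994012), whose product binds ICOS ligand and not CD80 or CD86, they encode phenylalanine, aspartate, a run of prolines and phenylalanine.
Ctla4: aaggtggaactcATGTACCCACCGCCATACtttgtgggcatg
Cd28: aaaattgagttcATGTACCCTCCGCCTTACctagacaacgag
Icos: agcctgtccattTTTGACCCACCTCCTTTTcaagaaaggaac

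In that loop, 16 of the 18 capital bases were the same in Ctla4 and Cd28, 11 in Icos and Cd28, and 11 in Ctla4 and Icos. The second set comes from exon 4 and shows the cytoplasmic motif of a tyrosine with a methionine at the third place after it, a docking site for phosphoinositide 3-kinase that in CTLA-4 also binds the AP-2 adaptor of endocytosis. Its codons are in capitals for Ctla4 (chr1:60914634-60914669), Cd28 (chr1:60769681-60769716) and Icos (chr1:60995548-60995583).
Ctla4: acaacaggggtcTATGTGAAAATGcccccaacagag
Cd28: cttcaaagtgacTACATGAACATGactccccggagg
Icos: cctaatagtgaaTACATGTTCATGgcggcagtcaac

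Here 10 of the 12 capital bases were the same in Icos and Cd28, 9 in Ctla4 and Cd28, and 7 in Ctla4 and Icos. The coding sequences of the 10 receptors shared 0 stretches of 31 bases with transcripts of any other gene, those of Cd28, Ctla4 and Icos included. Within their spans, Rpl18-ps1 overlaps Ctla4 and Gm37039 overlaps Icos on the same strand, and how the authors' counting treated such overlaps is not given in the sources used here.

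The costimulatory receptors of this locus were both abundant. Cd28 (ENSMUSG00000026012) had 901, 879 and 816 counts in libraries 1, 2 and 3, or 272 (95% Poisson interval 254 to 290), 285 (267 to 305) and 293 (274 to 314) CPM. Its intervals overlapped in all 3 libraries, and its mean of 283 ± 10.9 CPM (SD, n = 3) placed it at rank 800 of 22457 genes by CPM. Icos (ENSMUSG00000026009), the inducible costimulator that effector Treg cells carry at high level, had 1197, 1081 and 1094 counts, or 361 (341 to 382), 351 (330 to 373) and 393 (370 to 417) CPM. It was highest in library 3, with overlapping intervals, and averaged 368 ± 22.0 CPM. Neither passed the test between libraries at the threshold of 0.05 (chi-square test of counts against library totals, Benjamini-Hochberg adjusted over 10043 genes, adjusted p = 0.442 for Cd28 and 0.0811 for Icos). These and all other intervals cover counting error only.

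Ctla4 (ENSMUSG00000026011), the Treg receptor whose loss alone causes fatal autoimmunity in mice, had 1021, 938 and 934 counts, or 308 (289 to 327), 305 (285 to 325) and 336 (315 to 358) CPM. The intervals overlapped, the mean was 316 ± 17.1 CPM, and the chi-square test did not pass (adjusted p = 0.180). Pdcd1 (ENSMUSG00000026285, chr1:94038305-94052553, minus strand) encodes PD-1, which recruits phosphatases to the T cell receptor and CD28. It had 1041, 1031 and 798 counts, or 314 (295 to 334), 335 (315 to 356) and 287 (267 to 307) CPM. Library 3 was lowest and its interval lay apart from that of library 2. Pdcd1 passed the chi-square test (adjusted p = 0.0254), but not without library 2 (adjusted p = 0.190) or library 3 (adjusted p = 0.408).

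Btla (ENSMUSG00000052013, chr16:45224315-45257670, plus strand), the receptor of HVEM, was the least abundant inhibitory receptor of the CD28 family here, with 257, 274 and 244 counts or 77.5 (68.3 to 87.6), 88.99 (78.8 to 100.2) and 87.7 (77.0 to 99.4) CPM. Per coding base it had 0.281 ± 0.016 counts, below Pdcd1 at 1.11 ± 0.159 and Ctla4 at 1.44 ± 0.073 (SD, n = 3). The 3 Btla intervals overlapped, and the chi-square test did not pass (adjusted p = 0.391). B cells carry BTLA as well, and the summed B cell markers stood at 63.3, 161 and 196 CPM in the same libraries. Without Cd79b they summed to 18.7, 107.5 and 122 CPM. Their part in the Btla counts was not tested.

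**Figure D1:**
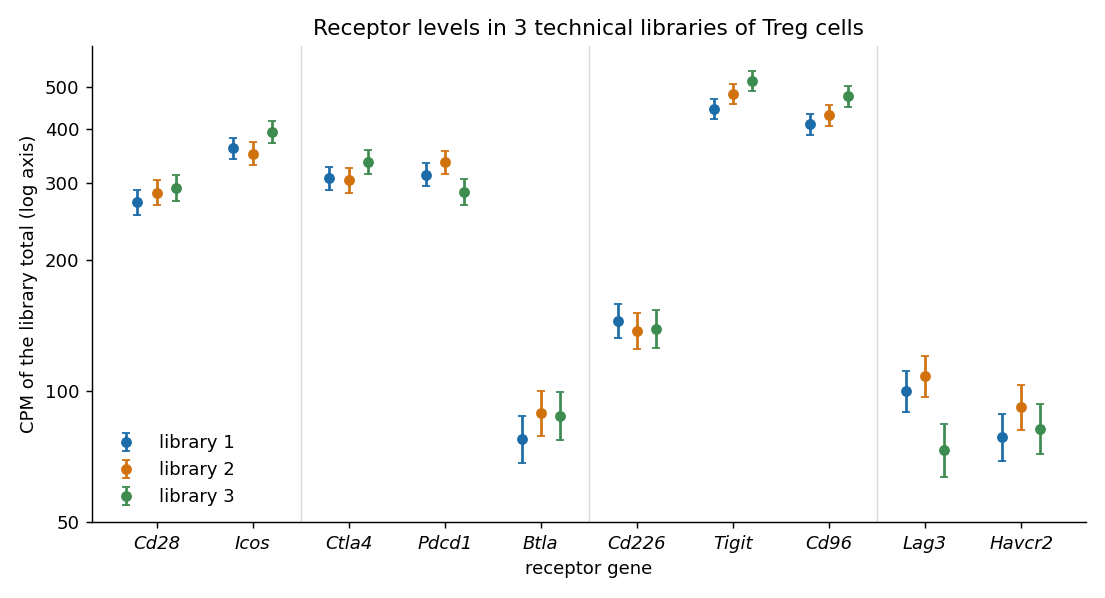
Level of each receptor gene (CPM of the library total, log axis) in libraries 1, 2 and 3 of Treg cells; points are single libraries and bars their exact 95% Poisson intervals, and pale lines divide costimulatory, inhibitory CD28 family, poliovirus receptor binding and remaining receptors. Lag3 and Pdcd1 were lowest in library 3, at 73.3 and 287 CPM, while Tigit and Cd96 were highest there, at 515 and 475 CPM.

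Among the receptors that meet CD155, Tigit and Cd96 had more counts per coding base than the activating receptor in each library. Cd226 (ENSMUSG00000034028), which encodes the activating receptor DNAM-1, had 481, 423 and 387 counts, or 145 (132 to 159), 137 (125 to 151) and 139 (126 to 154) CPM. These levels were the most even of all 10 receptors, with a coefficient of variation of 2.86% (chi-square test, adjusted p = 0.795). Tigit (ENSMUSG00000071552, chr16:43648867-43664146, minus strand), an inhibitory receptor found on highly suppressive Treg cells, had 1474, 1481 and 1434 counts, or 444 (422 to 468), 481 (457 to 506) and 515 (489 to 543) CPM. Library 1 was lowest, and its interval lay apart from that of library 3. Cd96 (ENSMUSG00000022657, chr16:46035657-46120251, minus strand), whose product binds CD155 and has mostly inhibitory effects in mouse lymphocytes, had 1358, 1323 and 1321 counts, or 409 (388 to 432), 429.7 (407 to 453) and 475 (449.5 to 501) CPM. Library 1 was again lowest and apart from library 3.

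Tigit and Cd96 both passed the chi-square test, with adjusted p = 0.00360 and 0.00486. Neither passed without library 1 (adjusted p = 0.216 for Tigit and 0.0677 for Cd96) or without library 3 (0.175 and 0.499 in the same chi-square test). Their raw counts were nearly the same in the 3 libraries, with a spread from lowest to highest of 3.21% of the mean for Tigit and 2.77% for Cd96, while the library totals differed.

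Lag3 (ENSMUSG00000030124, chr6:124904361-124911705, minus strand), a receptor for MHC class II that is related to CD4, varied most. It had 331, 333 and 204 counts, or 99.8 (89.3 to 111), 108 (96.8 to 120.4) and 73.3 (63.6 to 84.1) CPM. Libraries 1 and 2 overlapped, and library 3 lay below both. The highest level was 1.48 times the lowest, the coefficient of variation was 19.4%, and the chi-square test passed (adjusted p = 0.000636). The call was lost without library 3 (adjusted p = 0.592) and held without library 1 or library 2. Its neighbour Cd4, which lies 16.1 kb away on the same strand with 0 protein-coding genes between them, had 570.5, 624 and 539 CPM in libraries 1, 2 and 3, and so was also lowest in the last of them (adjusted p = 0.00132 in the chi-square test). Of the 2277 genes that passed that test, 911 were lowest in library 3. Havcr2 (ENSMUSG00000020399, chr11:46454935-46481255, plus strand) encodes TIM-3, an inhibitory receptor of exhausted and effector T cells that myeloid cells also carry. It had 260, 283 and 228 counts, or 78.4 (69.2 to 88.5), 91.9 (81.5 to 103) and 81.9 (71.7 to 93.3) CPM, with overlapping intervals (chi-square test, adjusted p = 0.312). The summed dendritic and myeloid markers stood at 24.1, 74.4 and 38.8 CPM in these libraries, and their part in the Havcr2 counts was not tested.

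In all, 4 of the 10 receptors passed the chi-square test, against 22.7% of the 10043 genes tested. Of the 4, Lag3 and Pdcd1 were lowest in library 3 and Tigit and Cd96 lowest in library 1. This test allows for counting error only. When each library was set against the other 2 with edgeR's quasi-likelihood test, in which spread beyond counting error counts too, 0 receptors passed, against 0.438% of all genes. Each such comparison, here and with DESeq2, has 1 library on 1 side, so it has little power and does not settle the 4 chi-square calls. With DESeq2's Wald test 0 receptors passed, against 0.0199% of all genes. The edgeR log2 fold change of library 3 over the other libraries was -0.53 for Lag3, -0.20 for Pdcd1, 0.13 for Tigit and 0.16 for Cd96, with adjusted p of 0.381, 0.702, 0.776 and 0.744.

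Compared per coding base, the receptors ran from Tigit at 2.02 ± 0.035 counts, through Icos at 1.68 ± 0.095, Ctla4 at 1.44 ± 0.073, Cd28 at 1.32 ± 0.067, Pdcd1 at 1.11 ± 0.159 and Cd96 at 0.739 ± 0.012, to Cd226 at 0.431 ± 0.047, Havcr2 at 0.305 ± 0.033, Btla at 0.281 ± 0.016 and Lag3 at 0.185 ± 0.047. At each step the upper gene stood above the lower in 3 of 3 libraries. The Poisson intervals were apart in all 3 libraries at every step but Ctla4 over Cd28 and Havcr2 over Btla, where they were apart in 0, and Cd28 over Pdcd1, where they were apart in 2. Tigit, Icos, Ctla4, Cd28 and Pdcd1 had over 1 count per coding base, a level that 428 of 21104 genes reached (2.03%). Divided by the union of all annotated exons, which includes untranslated ends, the counts gave another order, Tigit, Cd96, Pdcd1, Ctla4, Icos, Cd28, Lag3, Havcr2, Cd226 and Btla from high to low. Cd96 and Pdcd1 then stood above Icos, Ctla4 and Cd28, Cd96 above Pdcd1, Ctla4 above Icos, Lag3 above Havcr2, Cd226 and Btla, and Havcr2 above Cd226, so these directions rest on the length used.

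Ratios within a library do not depend on its total. They do not allow for the differences by count density given further below. Per coding base, Ctla4 over Cd28 was 1.11 (95% Clopper-Pearson interval 1.01 to 1.21), 1.04 (0.9505 to 1.15) and 1.12 (1.02 to 1.23) in libraries 1, 2 and 3, a mean of 1.09 ± 0.041 (SD, n = 3). Per coding base the inhibitory receptor was thus nearly level with the activating receptor for the same ligands, and in library 2 the interval included 1. Per base of all exons it was not, at a mean ratio of 2.93, so whether the 2 RNAs were level rests on the length used. Icos over Cd28 was 1.30 (1.19 to 1.42), 1.20 (1.10 to 1.32) and 1.31 (1.20 to 1.44), with all intervals above 1. For the CD155 receptors, Tigit over Cd226 was 4.23 (3.82 to 4.70), 4.84 (4.34 to 5.40) and 5.12 (4.57 to 5.74), and Cd96 over Cd226 was 1.56 (1.41 to 1.74), 1.73 (1.55 to 1.93) and 1.89 (1.68 to 2.12). Tigit over Cd96 was 2.71 (2.52 to 2.92), 2.80 (2.59 to 3.01) and 2.71 (2.51 to 2.92). Each ratio's intervals overlapped across the libraries. The sizes rest on the length used: per base of all exons, the mean ratio of Tigit to Cd226 was 18.2, that of Cd96 to Cd226 6.99, that of Ctla4 to Cd28 2.93 and that of Icos to Cd28 2.32, while that of Tigit to Cd96 was 2.61.

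**Figure D2:**
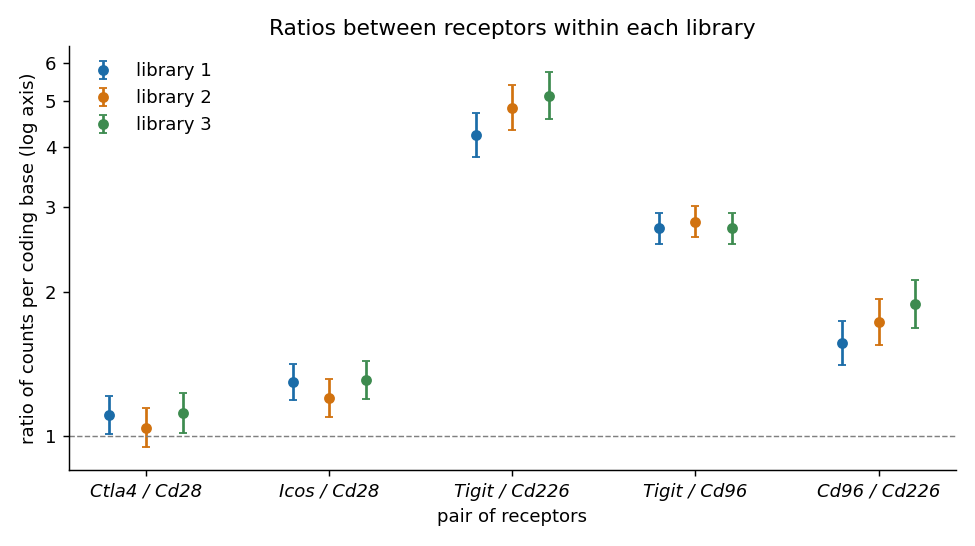
Ratio of counts per coding base (log axis) for pairs of receptors that share a ligand or family, in libraries 1, 2 and 3; points are single libraries, bars are exact 95% Clopper-Pearson intervals and the dashed line marks a ratio of 1. Ctla4 over Cd28 averaged 1.09, and Tigit over Cd226 averaged 4.73 ± 0.452.

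Counts per coding base had an upper edge in these libraries, and Tigit stood nearest to it among the receptors. Over 21104 genes with at least 300 coding bases the 99th percentile was 1.36 and the highest value 2.70 counts per coding base, and Tigit at 2.02 had 27 genes above it. The ratio of library 1 to library 3 in raw counts was smaller where genes were denser in counts. It was 1.24 for the summed counts of genes under 0.2 counts per coding base, 1.21 from 0.2 to 1, 1.10 from 1 to 1.8 and 1.03 at 1.8 and above, against 1.19 for the library totals. Tigit had a ratio of 1.03, equal to that of its density class, and Cd96 had 1.03 in a class at 1.21. The ratio was 1.62 for Lag3 in a class at 1.24, and 1.30 for Pdcd1 in a class at 1.10. Icos, Ctla4 and Cd28 had 1.09, 1.09 and 1.10 in the class at 1.10. Cd226, Havcr2 and Btla had 1.24, 1.14 and 1.05 in the class at 1.21. The share of genes passing the chi-square test was 19.4, 27.4, 33.5 and 68.0% over these classes, low to high. Set against the totals of its own class, a choice made after seeing the data, Tigit no longer passed (adjusted p = 0.957), while Pdcd1, Cd96 and Lag3 did. How duplicate reads were treated is not given in the sources used here, and the cause of the pattern was not tested.

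**Figure D3:**
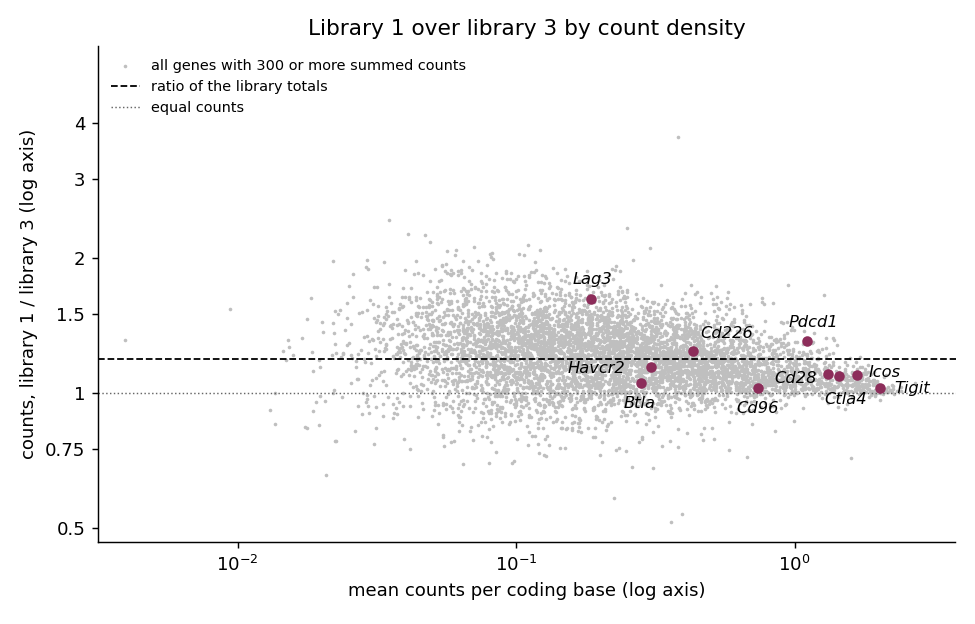
Raw counts in library 1 over library 3 (log axis) against mean counts per coding base (log axis); grey points are all genes with 300 or more summed counts, coloured points the 10 receptors, the dashed line the ratio of the library totals and the dotted line equal counts. Lag3 at 1.62 lay above the totals' ratio of 1.19, and Tigit and Cd96 lay near equal counts at 1.03.

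Of 15 listed ligands of these receptors, 10 were detected. The list leaves out the MHC class II genes, whose products LAG-3 also binds. The median over all 15, undetected ones included, was 0.0592 counts per coding base, against 0.00369 over all 21104 genes with at least 300 coding bases. The 10 receptors, all detected, had a median of 0.923, against 0.0942 for all detected genes. Lgals9, the galectin that binds TIM-3, had 1001, 987 and 961 counts in libraries 1, 2 and 3, and Lgals3, a galectin that binds LAG-3, had 784, 855 and 691. Per coding base they had 0.928 and 0.981 counts, above the other ligands in this list. The PD-1 ligands had 237, 235 and 190 counts for Cd274 and 38, 42 and 37 for Pdcd1lg2; 51.1% of the 31-base stretches of Cd274 also occur in another annotated gene, so its counts are uncertain.

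The B7 ligands shared by CD28 and CTLA-4 had fewer counts per coding base than the galectins, with 236, 196 and 184 counts for Cd80 and 121, 147 and 127 for Cd86, or 0.224 and 0.142 counts per coding base, above the median of 0.0942 over all detected genes. Antigen-presenting cells carry both, and whether these counts came from T cells was not tested. Pvr, which encodes CD155, had 67, 73 and 59 counts, Icosl, the ligand of ICOS, had 56, 57 and 70, and Tnfrsf14, which encodes HVEM, had 50, 66 and 41. Hmgb1, a ligand of TIM-3, had 109, 93 and 105 counts, and 98.5% of its 31-base stretches occur in other transcripts, so its level is uncertain. Ceacam1 had 0, 6 and 3 counts, Nectin1 3, 3 and 2, Nectin2 0, 2 and 0, Fgl1 0, 0 and 1 and Nectin3 0 in all 3 libraries; 44.2% of the 31-base stretches of Ceacam1 and 6.99% of those of Nectin2 occur in other genes, so these counts are uncertain. A count of 0 allows up to 0.905, 0.974 and 1.08 CPM in libraries 1, 2 and 3, by the limit of 3 counts. Of the 10 ligands tested between libraries, 1 passed, Lgals3 (chi-square test, adjusted p = 0.0220), against 22.7% of all genes.

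**Figure D4:**
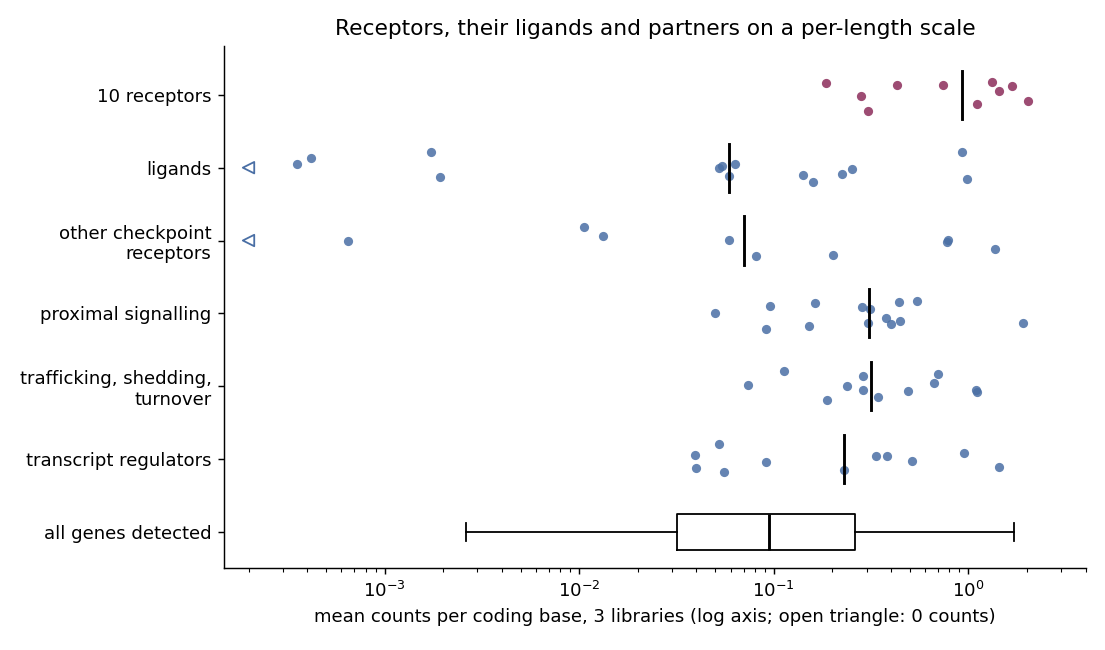
Mean counts per coding base over the 3 libraries (log axis) of the 10 receptors, their ligands, other checkpoint receptors, signalling, trafficking and regulatory genes; points are genes, thick lines list medians (genes at 0 included, open triangles), and the box gives quartiles and median of all detected genes with whiskers from the 1st to the 99th percentile. The receptors' median was 0.923, against 0.0942 for all detected genes.

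Of 10 other receptors measured that modulate lymphocyte activation, most of them of the immunoglobulin superfamily, 8 were detected. The median over all 10, undetected ones included, was 0.0703 counts per coding base. Cd5, which damps T cell receptor signals, had 2226, 2077 and 1813 counts and 1.38 per coding base, Vsir, which encodes VISTA, had 830, 774 and 575 and 0.784, and Cd200r1, the receptor of CD200, had 821, 754 and 708 and 0.778. Havcr1, which encodes TIM-1, had 0 counts in all 3 libraries. Of the 31-base stretches, 13.1% of those of Cd200r1 and 8.25% of those of Havcr1 occur in other genes, so these counts are uncertain. Of the 8 tested, 1 passed the chi-square test, Vsir (adjusted p = 0.00371), which was lowest in library 3; the share over all genes was 22.7%.

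Genes that carry the receptors' signals were all detected, 14 of 14, with a median of 0.309 counts per coding base. Lck, the kinase that starts T cell receptor signalling, had 3087, 2999 and 2885 counts and 1.92 per coding base. Ptpn6, which encodes the phosphatase SHP-1, had 1088, 1040 and 808 counts and 0.546 per coding base, and Prkcq, the kinase downstream of CD28, had 1061, 975 and 799 and 0.446. In Ptpn6, 9.71% of the 31-base stretches occur in another gene, so its counts are uncertain. Ptpn11, which encodes SHP-2, the main phosphatase partner of PD-1, was the lowest of the list with 80, 108 and 81 counts and 0.0501 per coding base. Between libraries, 6 of 14 passed the chi-square test, against 22.7% of all genes.

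The list for receptor trafficking, shedding and turnover was likewise detected in full, 12 of 12, with a median of 0.315 counts per coding base. The vesicle GTPases Rab8a and Rab11a had 1.11 and 1.09 counts per coding base, and Trat1, an adaptor that moves CTLA-4 to the surface, had 397, 420 and 416 counts and 0.695 per coding base. In Rab11a, 12.5% of the 31-base stretches occur in another gene, so its level is uncertain. Lrba, which protects CTLA-4 from degradation in lysosomes, was lowest at 0.0734 per coding base with 762, 523 and 600 counts, and differed between libraries (chi-square test, adjusted p = 9.83e-06). In this list 7 of 12 passed that test, against 22.7% of all genes.

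All 11 transcriptional and post-transcriptional regulators of the receptors were detected, with a median of 0.229 counts per coding base. Batf, an AP-1 family factor of effector Treg cells, had 534, 537 and 544 counts and 1.44 per coding base. Tox, a factor that sustains inhibitory receptors in exhausted T cells, had 1574, 1478 and 1439 counts and 0.949 per coding base, and Nr4a1, an early target of T cell receptor signals, had 962, 1064 and 756 and 0.514. Nfatc2, a calcium-dependent factor, was lowest with 117, 116 and 94 counts and 0.0392 per coding base. Of the 11, 6 passed the chi-square test, against 22.7% of all genes, with Nr4a1 lowest in library 3 (adjusted p = 1.36e-05) and Batf highest there (adjusted p = 0.0306).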

How the data were processed

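The authors deposited whole-number counts per gene, 1 table per library, not normalized, for 22457 Ensembl identifiers. Per the notes deposited with each table, they derive from mm10 and GENCODE M4; aligner, counter, strand use and handling of duplicates: not given in the sources used here. Per the labels, fragmentation was by shearing, with a size range of 100 to 300. Symbols, coordinates, coding lengths and sequences came from GENCODE M21 on GRCm38, the assembly also called mm10; 22195 identifiers matched a symbol. Coding length is that of the longest coding transcript.

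CPM was computed from library totals, with exact 95% Poisson intervals. The main test was a chi-square test of each gene's counts against library totals (2 degrees of freedom), over genes with 30 or more summed counts, Benjamini-Hochberg adjusted, threshold 0.05. Alternatives were edgeR 4.0.16 and DESeq2 1.42.0 (R 4.3.3), 1 library against the other 2; Python 3.11.15 and SciPy 1.17.1 did the rest.

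The members and lists were chosen with earlier results of these data known. Named genes are the 10 receptors, all measured ligands, the 3 highest and 1 lowest genes per coding base of each other list, 4 Treg and T cell markers, and the 3 leading markers of other cells, of which 1 is not reported here. Pvrig was not analysed here. Depth limits precision to the intervals given.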

Additional observations from a re-analysis of the deposited data

How the results depend on the processing

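The count of receptors that differed between libraries was 4 in the chi-square test and ranged from 0 to 3 when 1 library was left out, with 0 in edgeR and 0 in DESeq2. For all genes the count was 2277, with 904 to 1466 when 1 library was left out, 44 in edgeR and 2 in DESeq2. The edgeR and DESeq2 comparisons have 1 library on 1 side and so little power. The cause was not tested. Other totals and count minimums gave 3 to 5 receptors and, over all genes, 2083 to 2445, with the number of genes tested differing between some settings. Icos was added (chi-square test, adjusted p = 0.0183) when totals came from genes under 0.5 counts per coding base. In that setting the count over all genes was also highest, at 2445 of 10043 tested. It was lowest, at 2083, with the totals of each density class, where 3 receptors passed. With all exons in place of coding bases, 2 of 10 receptors kept their place in the order, several neighbours changed sides (Cd96 and Pdcd1 above Icos, Ctla4 and Cd28; Lag3 above Havcr2, Cd226 and Btla), and the mean ratios were 2.93 for Ctla4 to Cd28, 2.32 for Icos to Cd28, 18.2 for Tigit to Cd226, 2.61 for Tigit to Cd96 and 6.99 for Cd96 to Cd226; the lengths alone make that change. All 10 receptors were detected under each of the 6 alternatives run. With 204 to 333 counts, Lag3 had wide intervals, and a count of 0 for a ligand allows a level near 1 CPM. No paired analysis was possible because there is 1 group.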

Other observations

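Among genes of the receptors' pathways that passed the chi-square test, many were lowest in library 3. These genes were chosen after their values were seen, and any likeness between them rests on 3 technical libraries of 1 sample. Of the 4 receptors that passed, Tigit and Cd96 were lowest in library 1, and Lag3 and Pdcd1 in library 3. Of the 6 receptors that did not pass, 0 were lowest in library 3. Of the 6 signalling genes that passed, 4 were lowest there: Inpp5d, Pik3cd, Ptpn6 and Vav1. Of the 7 trafficking genes that passed, 4 were lowest there: Adam10, Adam17, Def6 and Fbxo38. Of the 6 regulators that passed, 4 were lowest there: Irf4, Nfatc1, Nr4a1 and Prdm1, with 390 counts of Prdm1 in library 3, against 747 and 628 in libraries 1 and 2. Over all genes that passed, 911 of 2277 (40.01%) were lowest in library 3. The cause was not tested.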
